A study of Mus musculus with 8 samples.

Results

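Cells of the mouse T cell line CTL-EN carrying the beta common chain (beta-c) of the GM-CSF receptor with serine changed to glycine (Ser585Gly) were compared with cells carrying the wild-type chain, both deprived of factor. Both groups had been kept for 12 h in RPMI medium with 0.5% serum and received no GM-CSF before RNA was taken (0 h). The comparison was measured directly on 2 of the 8 2-colour oligonucleotide arrays of the series, and all 21778 probes that could be placed on the arrays were members. Array 1 had Ser585Gly RNA in Cy5 and array 2 had it in Cy3; every ratio below is log2 of Ser585Gly over wild type. The remaining 6 arrays compared the same lines after 12 h with human GM-CSF at 50 ng/mL (12 h), or 12 h with 0 h within a line, so that the design formed a square with 2 dye orientations on each side. The labels give 1 line for each genotype, do not say whether it was a clone or how the chain was expressed, and name no separate cultures, so p-values measure the spread between hybridisations. The introduced chain itself has no probe among those used, and its level was not analysed here.

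The beta common chain transmits the signals of GM-CSF, interleukin-3 and interleukin-5 and has no cytokine of its own. A serine of its cytoplasmic part is known to be phosphorylated and then to bind 14-3-3 proteins, a step linked to phosphoinositide 3-kinase and to cell survival. T cells that lose their cytokine stop growing, lower the synthesis of ribosomes and can die through the Bcl-2 family.

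The arrays showed the RNA of T cells. Cd3e, Cd3d and Cd3g, chains of the T cell receptor complex, had a mean brightness at the 98.2, 97.4 and 99.2 percentile of all probes. Thy1, a T cell surface protein, stood at the 99.2 percentile, and Cd8a and Cd8b1, chains of the CD8 coreceptor, at the 83.5 and 85.2 percentile. None of these 6 genes passed the test at 0 h. The probe of Cd4 lay within the range of empty wells in both groups. Of the markers of B cells (13), erythroid cells and megakaryocytes (16), fibroblasts and stroma (15) and dendritic and NK cells (14), 0 passed in limma, with 2, 4, 6 and 5 at an unadjusted p under 0.05. Among 14 mast cell markers 1 was lower, and among 27 myeloid genes 2 were higher and 1 lower. A marker that did not differ can still be present in both lines. Median brightness percentiles of these lists, in the order given, were 35.26, 50.29, 47.29, 40.81, 38.05 and 41.13, against 57.51 for all genes. Median foreground intensity on arrays 1 and 2 was 684.5 and 669.4 in Cy5 and 794.8 and 836.8 in Cy3. Array 1 stood apart from the other 7 arrays. The central 90% of its log2 ratios ran from -1.10 to 0.62, against -0.42 to 0.41 on array 2, and no other array had a 5th percentile below -0.57. The log2 ratios of arrays 1 and 2 correlated at r = 0.124 across probes, which are not independent replicates.

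At 0 h, 887 of 21778 probes (4.07%) passed an adjusted p of 0.05 in limma fitted to all 8 arrays, 451 higher and 436 lower in Ser585Gly. A change of 2-fold or more was seen for 53 of the higher and 75 of the lower probes. Both arrays had the same sign for 882 of the 887. The fit that called these probes holds both arrays, so this agreement largely follows from the call. When each dye-swap pair was averaged to 1 value before the fit, 293 probes (1.35%) passed, 115 higher and 178 lower, and 273 of them were among the 887. Array by array, the count was 325 without array 1, 110 without array 2 and between 256 and 637 without any 1 of the 6 other arrays. Taking the brightest probe of each of 15093 genes, 359 genes (2.38%) were higher and 356 (2.36%) lower. Counts within the gene lists below are to be read against these shares.

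**Figure D1:**
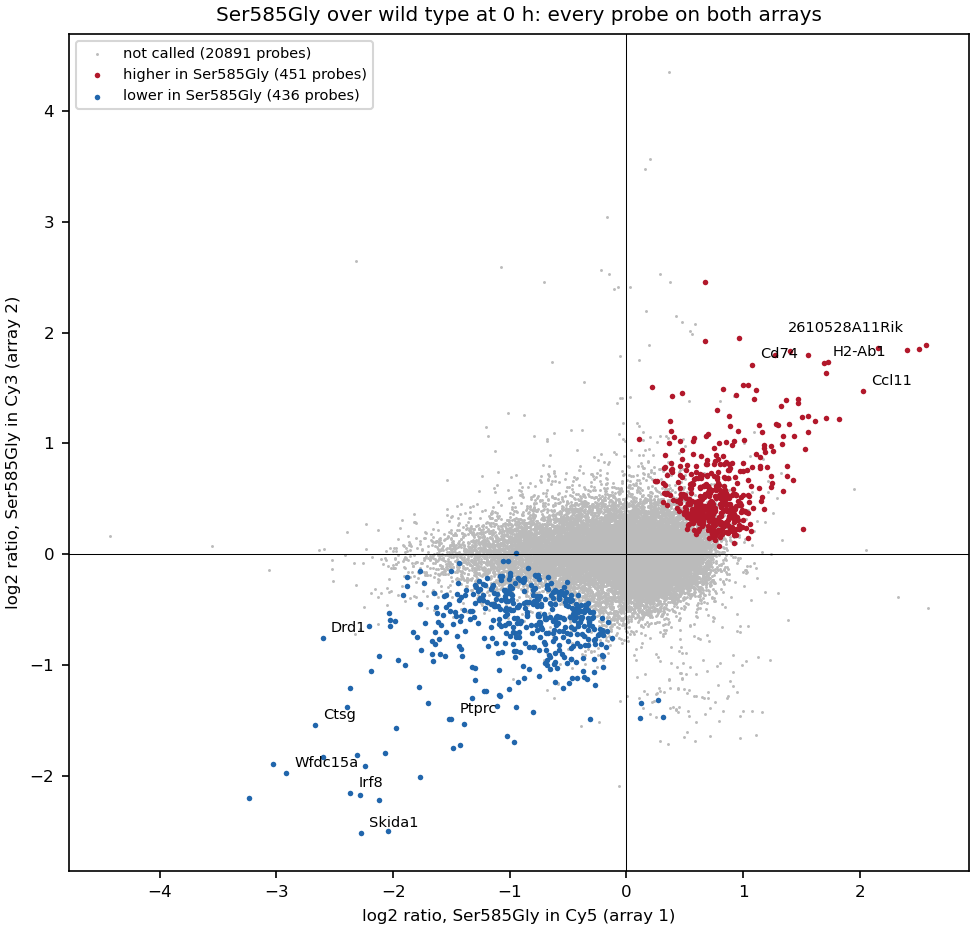
Log2 ratio of Ser585Gly over wild type at 0 h for every probe, with array 1 (Ser585Gly in Cy5) on the x axis and array 2 (Ser585Gly in Cy3) on the y axis. Grey points did not pass the test. The 451 higher (red) and 436 lower (blue) probes lie mostly in the corners where both arrays have the same sign. This largely follows from the fit that called them, which holds both arrays. Array 1 has the wider spread.

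Several genes of the class II major histocompatibility complex, whose proteins show peptides to helper T cells, were higher in Ser585Gly. H2-Ab1, the beta chain of the I-A molecule, had foreground intensities of 15088 in Ser585Gly and 4076 in wild type on array 1, and of 11894 and 3759 on array 2. Its log2 ratios were 1.69 and 1.73 on arrays 1 and 2. H2-Aa, the alpha chain of I-A, had 1.05 and 1.53. Ser585Gly was thus the brighter channel on both arrays for each chain. H2-Eb1, the beta chain of I-E, had 1.39 and 1.17, Cd74, the invariant chain that guides class II molecules, had 1.08 and 1.71, and H2-DMb2, a subunit of the peptide loading factor, had 1.28 and 1.18. In the fit these genes were higher by between 1.19 ± 0.10 (SE, 8 arrays) for H2-DMb2 and 1.64 ± 0.10 for H2-Ab1, with adjusted p from 0.00032 for H2-Ab1 to 0.0023 for H2-Aa. These 5 of the 20 measured class II genes were higher and 1, Ifi30, a lysosomal thiol reductase, was lower (-0.43 ± 0.09), while the list's median was 0.09 against -0.0043 over all genes. Without array 1 the counts were 6 higher and 0 lower with a median of 0.22, and without array 2 they were 5 and 0 with a median of -0.05; print-tip loess gave 8 higher and 1 lower. The other 14 did not pass; Ciita, the class II coactivator, had log2 ratios of -1.03 and -0.04 on the arrays, and H2-DMa, the partner of the DM beta chains, 0.22 and 0.03. None of 15 class I genes passed in limma, with 6 at an unadjusted p under 0.05.

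H2-Ab1, H2-Aa and H2-Eb1 are neighbours on chromosome 17. No promoter window was at hand for H2-Ab1, and that of Cd74 was not searched. For H2-Aa, H2-Eb1 and H2-DMb2, the 250 bases before the start are shown to let their letters be read. They are from RefSeq (GRCm38.p6), 5′ to 3′ along the gene: H2-Aa at chr17:34287824-34288073 on the minus strand, H2-Eb1 at chr17:34305617-34305866 and H2-DMb2 at chr17:34144999-34145248 on the plus strand. Capitals mark CTGATTGG, the letters of the class II Y box, searched on both strands.
H2-Aa: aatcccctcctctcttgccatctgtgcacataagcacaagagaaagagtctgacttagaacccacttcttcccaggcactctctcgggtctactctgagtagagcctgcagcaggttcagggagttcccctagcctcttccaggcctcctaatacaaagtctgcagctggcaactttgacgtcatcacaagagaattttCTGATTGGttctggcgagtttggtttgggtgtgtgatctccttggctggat
H2-Eb1: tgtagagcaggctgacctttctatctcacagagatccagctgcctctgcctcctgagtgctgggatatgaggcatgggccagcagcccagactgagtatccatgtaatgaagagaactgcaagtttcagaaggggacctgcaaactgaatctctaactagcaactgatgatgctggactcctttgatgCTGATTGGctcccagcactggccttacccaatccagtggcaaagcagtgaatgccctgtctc
H2-DMb2: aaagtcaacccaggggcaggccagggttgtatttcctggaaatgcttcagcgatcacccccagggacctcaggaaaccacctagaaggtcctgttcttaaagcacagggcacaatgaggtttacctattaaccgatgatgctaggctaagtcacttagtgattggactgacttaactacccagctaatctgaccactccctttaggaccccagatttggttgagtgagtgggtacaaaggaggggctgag
The match began 51 bases before the start in H2-Aa and 62 in H2-Eb1, and these letters are not in the window of H2-DMb2. Among all 32851 promoter windows of that length, 3.83% held the motif. A match is a description of letters, and binding was not measured.

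Other genes with large increases encode proteins of varied kinds. 2610528A11Rik, which encodes a small secreted protein, had log2 ratios of 2.57 and 1.89 on arrays 1 and 2 (2.22 ± 0.15, adjusted p = 0.00035). Ccl11, the chemokine eotaxin, had 2.03 and 1.47 (1.74 ± 0.11), and Esm1, the secreted proteoglycan endocan, had 1.40 and 1.83 (1.71 ± 0.14). Ser585Gly was the brighter channel for each. Prss1, a trypsin, was higher by 1.86 ± 0.18 and Serpinb1a, an inhibitor of neutrophil serine proteases, by 1.94 ± 0.29. Among enzymes, Xpnpep2, a membrane aminopeptidase, was higher by 1.67 ± 0.11, Gpx8, a peroxidase of the endoplasmic reticulum, by 1.39 ± 0.11, and Sat1, which acetylates polyamines for their export, by 1.38 ± 0.11. Cdkn2a, the locus of the cell cycle inhibitors Ink4a and Arf, had 1.73 on both arrays and was higher by 1.64 ± 0.11. Cdh1, the adhesion protein E-cadherin, was higher by 1.35 ± 0.13, Mtss1, an actin-binding membrane protein, by 1.44 ± 0.11, and Kcnk10, a potassium channel, by 1.36 ± 0.11. Cd55 and its copy Cd55b, which protect cells from complement, were higher by 1.29 ± 0.22 and 1.30 ± 0.15; all 3 Cd55 probes passed and 1 of 2 Cd55b probes did. Signal shared between such near copies was not tested.

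On the lower side, Irf8, a transcription factor of interferon responses, was a bright probe with intensities of 4196 in Ser585Gly and 18212 in wild type on array 1, and 3691 and 16800 on array 2. Its log2 ratios were -2.37 and -2.15 (-2.28 ± 0.09, adjusted p = 0.00010). Wfdc15a, a secreted protein with a protease inhibitor domain, had -2.92 and -1.97 (-2.41 ± 0.14); its Ser585Gly signal of 177.8 on array 1 lay within the empty wells, up to 216.2 there, so the size of that ratio is uncertain. Wild type was the brighter channel on both arrays for both genes. Ctsg, the granule protease cathepsin G, had -2.67 and -1.54 (-2.07 ± 0.17), and Chit1, a chitinase of phagocytes, had -2.31 and -1.81 (-1.97 ± 0.17). Ptprc, the phosphatase CD45 that sets the threshold of T cell receptor signalling, had -1.50 and -1.49 (-1.59 ± 0.12). Tpm1, an actin-binding tropomyosin, was lower at -1.82 ± 0.14, Cdc42ep3, an effector of the GTPase Cdc42, at -2.09 ± 0.28, and Mpp6, a membrane scaffold, at -1.62 ± 0.10. Lilr4b, an inhibitory receptor, was lower at -1.66 ± 0.16, Btc, a ligand of the epidermal growth factor receptor, at -1.41 ± 0.10, and Snx16, an endosomal sorting protein, at -1.55 ± 0.10. Rex2, Ott, Padi3, Wfikkn2, Plxdc2 and Skida1 lay between -2.12 and -1.64, and Ott and Wfikkn2 too had a Ser585Gly signal within the empty wells on array 1.

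The 40 genes with the largest differences were required to have the same sign on both 0 h arrays. Several of these 40 genes rested on less even data. Drd1, a dopamine receptor, had -2.60 on array 1 and -0.75 on array 2 (-1.51 ± 0.28), and 1 of its 3 probes passed. Ighm, the constant part of the IgM heavy chain, had -2.60 and -1.83, but 1 of its 9 probes passed and the others reached 0.43. Plxdc2 had 1 of its 2 probes past the threshold, with the other at -0.67, and lost the call without array 1 or without array 2. Skida1 had -2.28 and -2.51 at 0 h with a fit of -2.12 ± 0.45, the largest SE of the 40. Its 12 h arrays had opposite signs (-1.83 and 1.03). Serpinb1a had 2.18 from arrays 1 and 2 but 1.20 from the other 6 arrays. Of the 40, 34 passed without array 1 and 34 without array 2. With the ratio taken from arrays 1 and 2 and the spread still from all 8 arrays, 37 passed, as did 227 of all probes (1.04%). Cd55, Drd1 and Skida1 were those of the 40 that did not.

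**Figure D2:**
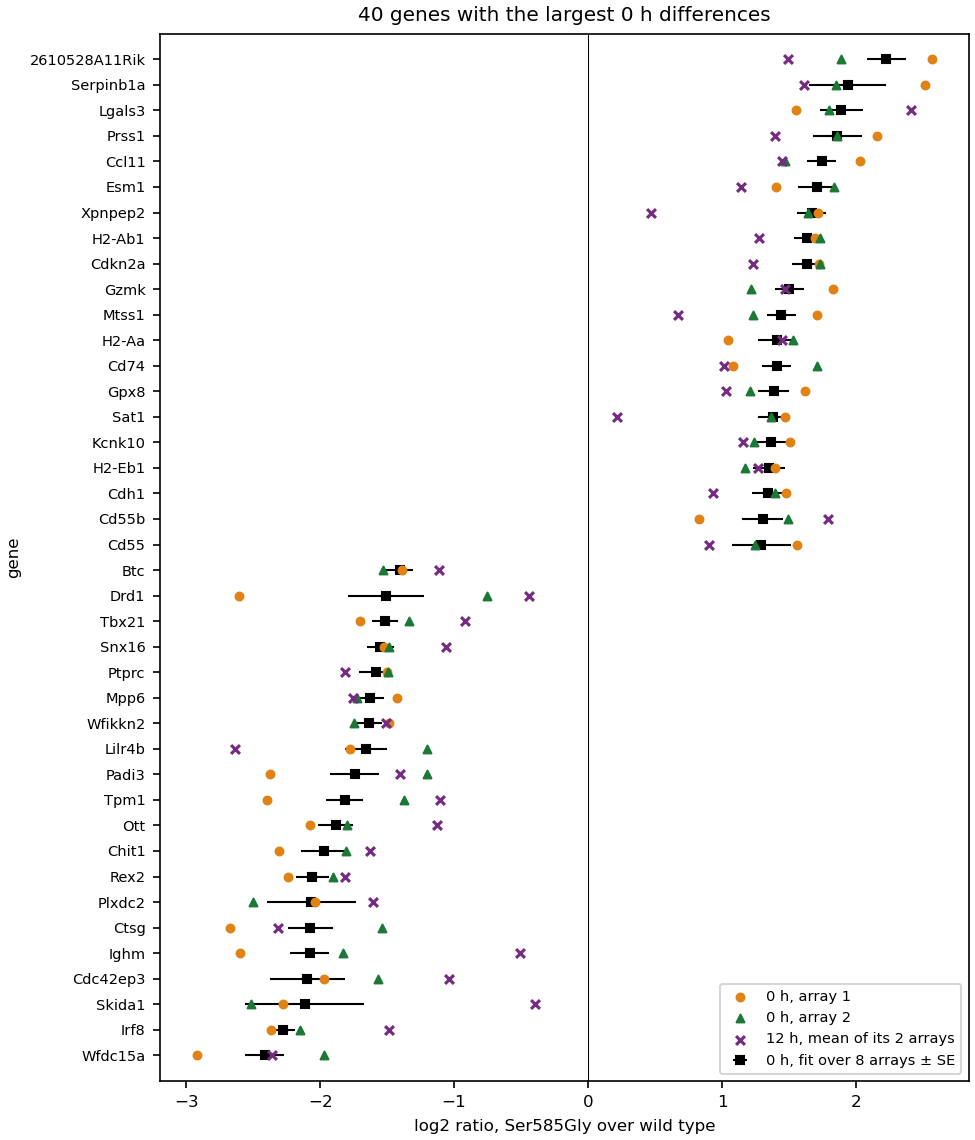
The 20 genes with the largest increase and the 20 with the largest decrease at 0 h, taking each gene's brightest probe (3 dimmer Trf probes, at -2.61 to -2.43, lay lower than any shown); the x axis is the log2 ratio of Ser585Gly over wild type, squares are the fit over 8 arrays with its SE, circles and triangles are arrays 1 and 2, and crosses the mean of both 12 h arrays. Both 0 h arrays lie on 1 side of 0 for each gene because this was required of the genes shown. The widest gap between arrays is that of Drd1 (-2.60 and -0.75).

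T cell genes other than the receptor chains differed in both directions. Tbx21, the T helper 1 factor T-bet, had log2 ratios of -1.70 and -1.34 on arrays 1 and 2, and Id2, an inhibitor of helix-loop-helix factors, had -1.20 and -1.24. These 2 were the members that passed among 23 lineage factors, and both were lower (-1.51 ± 0.10 and -1.22 ± 0.09). Eomes, the factor most like T-bet, had -0.44 and 0.20, Gata3, the T helper 2 factor, had -0.59 and 0.05, and neither passed. Of 28 genes of the T cell receptor complex and its first signalling steps, Ptprc and Ctla4, an inhibitory receptor (-0.75 ± 0.11), were lower, Ctla4 with a Ser585Gly signal within the empty wells on array 1, while Txk, a kinase of the Tec family (1.09 ± 0.10), and Lcp2, the adaptor SLP-76 (0.72 ± 0.12), were higher.

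Of 26 cytotoxic genes and T cell cytokines, 5 were lower and 2 higher, with a median of -0.28 that was -0.09 with print-tip loess and -0.16 with scaled arrays. Granzymes, the serine proteases of killer cell granules, went both ways. Gzmk had 1.83 and 1.22 on the arrays and was higher by 1.50 ± 0.11. Gzmg had -0.66 and -0.93, Gzmd -0.43 and -0.98, Gzme -0.61 and -0.58, and Gzmc -0.37 and -1.10, with fits from -0.78 ± 0.10 for Gzmg to -0.56 ± 0.10 for Gzme. These genes are close copies, and signal shared between their probes was not tested. Gzma had -0.78 and 0.15 and Prf1, the pore-forming perforin, -0.86 and -0.02; neither passed. Il5 was lower at -0.58 ± 0.12 on a probe within the empty wells on array 1 in Ser585Gly, and Fasl, the death ligand, was higher by 0.52 ± 0.09. Without array 2, Gzmk was the 1 member past the threshold; without array 1, 1 was higher and 3 were lower, at a median of -0.09.

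Of 27 cytokine receptor chains, 3 were lower and 0 higher, with a median of -0.19 that was -0.05 with print-tip loess and with the deposited table: Il15ra, the interleukin-15 receptor alpha chain, with -1.90 and -1.002 on the arrays (-1.35 ± 0.16), Ifnar1 (-0.61 ± 0.11) and Ifngr1 (-0.48 ± 0.10), which are receptor chains for interferons. Csf2ra, the mouse alpha chain for GM-CSF, had -0.62 and 0.14, Il3ra, the interleukin-3 alpha chain, 0.05 and 0.07, and Il2rb, a chain shared by the receptors for interleukins 2 and 15, -1.54 and -0.35; none passed. Of 28 JAK-STAT targets and feedback genes, 4 were lower and 1 higher, with a median of 0.03 that was -0.03 with scaled arrays; print-tip loess or the deposited table gave 6 lower and 4 higher. Myc, a driver of cell growth, had -1.01 and -1.22 (-1.18 ± 0.12, adjusted p = 0.0022). Cish, a feedback inhibitor of cytokine receptors, had -1.01 and -0.32, Pim1, a survival kinase, -1.01 and -0.23, and Bcl2l1, the survival gene for Bcl-xL, -0.64 and -0.45. The 1 higher gene was Jun, a transcription factor, with 0.81 and 0.29 (0.66 ± 0.15). With pairs averaged, Myc alone of these 5 passed (adjusted p = 0.016), as it did without array 1 or without array 2. Of 21 genes of 14-3-3 proteins and the phosphoinositide 3-kinase pathway, Pik3r1, its regulatory subunit (0.61 ± 0.09), and Pik3ip1, its inhibitor (0.51 ± 0.10), were higher and 0 were lower; neither was past the threshold with pairs averaged, and print-tip loess or the deposited table gave 4 higher and 1 lower. The 14-3-3 genes Ywhaz (0.03 and 0.23), Ywhab (-0.60 and 0.07) and Ywhae (-1.24 and -0.46) did not pass. Of 18 Bcl-2 family genes 1, Bcl2l1, was lower, a share near that of all genes.

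Of 32 genes of ribosome biogenesis, 9 were lower and 0 higher, and the median was -0.35. Below 0 lay 29 of them, against 7646 of all 15093 genes, 49 of 57 ribosomal protein genes and 28 of 35 S phase genes. Polr1b, a subunit of RNA polymerase I, had -1.07 and -0.88 on the arrays (-0.87 ± 0.11), Bysl, a small subunit assembly factor, had -0.73 and -0.65, and Ncl, the nucleolar protein nucleolin, had -1.65 and -0.34 on its brighter probe and -0.96 and -0.71 on the other. Both Ncl probes were lower, and every ratio of these 3 genes was below 0. Without array 1, 4 of the 32 were lower and the median was -0.30; without array 2, 0 passed in limma and the median was -0.39; with pairs averaged 2 passed. The count was 15 with print-tip loess, 16 with the deposited table and 14 with background subtraction, with dim probes left out or with an intensity trend. At 12 h none of the 9 passed, with adjusted p from 0.347 (Bysl) to 0.824 (Ubtf), and none passed the interaction with time (adjusted p from 0.204 for Polr1b to 0.711 for Ncl), and Polr1b had -0.12 and 0.03 on the 12 h arrays. Ribosomal protein genes had 1 lower of 57 (Rpl7a, -0.76 ± 0.12) and a median of -0.16. Of 35 S phase genes, Ccne2, a cyclin of S phase entry (-0.88 ± 0.16), and Mcm2, a replicative helicase subunit (-0.87 ± 0.11), were lower and Tyms, which makes thymidylate (0.52 ± 0.09), was higher. Among 26 FoxO and quiescence targets, 5 were higher, led by Ccr7, a homing receptor of lymphoid tissue (1.12 ± 0.10), and Ccng2, an antiproliferative cyclin (1.03 ± 0.19), and 1 was lower, Cdkn2c, a cyclin kinase inhibitor (-0.70 ± 0.12).

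Of 31 genes of cholesterol and fatty acid synthesis, 9 were higher and 0 lower, with a median of 0.24. Msmo1, a sterol oxidase, had 0.93 and 0.70 on the arrays (0.78 ± 0.10), Mvd, which makes isopentenyl diphosphate, had 1.15 and 0.48 (0.76 ± 0.11), Pmvk, the kinase before it, had 1.20 and 0.79 (0.87 ± 0.18), and Srebf2, the regulator of sterol genes, had 0.96 and 0.44 (0.67 ± 0.11) on 1 of its 2 probes. Ser585Gly was the brighter channel on both arrays for these 4, which were picked from genes called by a fit that holds these arrays. Without array 1, 3 of the 31 passed; without array 2, 0 passed in limma, at a median of 0.33; with pairs averaged 2, Msmo1 and Mvd, passed (adjusted p = 0.046 and 0.048). The count was 14 with the deposited table. All 9 were also higher at 12 h, with fits between 0.63 and 0.95 and adjusted p from 0.0032 to 0.044. The fit over all arrays that called these genes also gave their 12 h values, so this is no independent check.

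Calcium-binding and adhesion genes were among the higher genes. Lgals3, the lectin galectin-3, had log2 ratios of 1.56 and 1.80 on arrays 1 and 2 (1.89 ± 0.16). S100a4, a calcium-binding protein of motile cells, had 1.33 and 1.34, Anxa2, a membrane-binding annexin, 1.53 and 0.95, and S100a13 0.84 and 0.51. These 4 of 21 were higher and 0 lower, with a median of 0.22, against 9 higher and 1 lower with print-tip loess or the deposited table; the other S100a4 probe had 0.04. Of 35 adhesion and cytoskeleton genes 5 were higher and 1 lower. Vim, the filament protein vimentin (1.16 ± 0.11), Itgae, the integrin CD103 (1.15 ± 0.16), Lcp1, the actin bundler plastin (0.74 ± 0.13), and Itgb7, the integrin partner of Itgae (0.67 ± 0.10), were higher, and Icam2, an adhesion ligand (-0.68 ± 0.15), was lower.

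Smaller sets of immune genes were mixed. Ccr7 and Ccr4, a chemokine receptor of skin-homing and T helper 2 cells (0.88 ± 0.14), were higher and Ccr2, a receptor of monocytes and memory T cells (-0.98 ± 0.12), was lower among 27 chemokines and receptors. Tnfrsf9, the costimulatory receptor 4-1BB, had 1.14 and 1.17 (1.07 ± 0.11), on 1 of 2 probes. All 4 probes of Trf, the iron carrier transferrin, were lower, from -2.61 to -0.66, while Ftl1, ferritin light chain (0.71 ± 0.11), and Tfrc, the transferrin receptor (0.46 ± 0.10, 1 of 2 probes), were higher. Of 27 myeloid genes, Ctsg was lower and Fcgr3, an Fc receptor (0.87 ± 0.15), and Cd68, a lysosomal protein (0.51 ± 0.11), were higher; Elane, the granule protease elastase, had -1.22 and -0.02 and Mpo, myeloperoxidase, 0.43 and 0.02, and neither passed. Ero1a, an oxidase of protein folding (0.99 ± 0.11), led 3 higher of 23 glycolysis and hypoxia genes, and Ddit3, the stress factor CHOP (0.67 ± 0.09), was 1 of 2 higher of 35 amino acid response genes, beside 1 lower. Among 33 proteasome genes 0 passed in limma, with 8 at an unadjusted p under 0.05.

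Among 13 interferon regulatory factors and STAT proteins Irf8 passed, as 1 lower and 0 higher, against 1 lower and 4 higher with print-tip loess or the deposited table; Irf7, an amplifier of the type I interferon response, had -0.01 and 1.02 on the arrays and Irf1, an inducer of class I genes, 0.03 and -0.24. Of 19 interferon-stimulated genes, Ifih1, the RNA sensor MDA5 (0.65 ± 0.10), was higher and Igtp, an interferon-induced GTPase (-0.67 ± 0.13), was lower. Among 25 regulators of G-protein signalling and small GTPases, Rgs18 (-1.30 ± 0.24) and Gna15, a G-protein alpha subunit (-1.03 ± 0.12), were lower and Dock8, an activator of Cdc42 (0.77 ± 0.10), was higher. Of 14 mast cell markers 1 passed, the granule protease Mcpt8 (-0.70 ± 0.11). Calls were also made among 32 genes of the TNF superfamily and NF-kB (3 higher and 1 lower), 31 of lysosomes and autophagy (3 higher), 36 of oxidative phosphorylation (2 higher), 31 of mitosis (1 higher) and 11 complement regulators (2 higher, Cd55 and Cd55b).

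**Figure D3:**
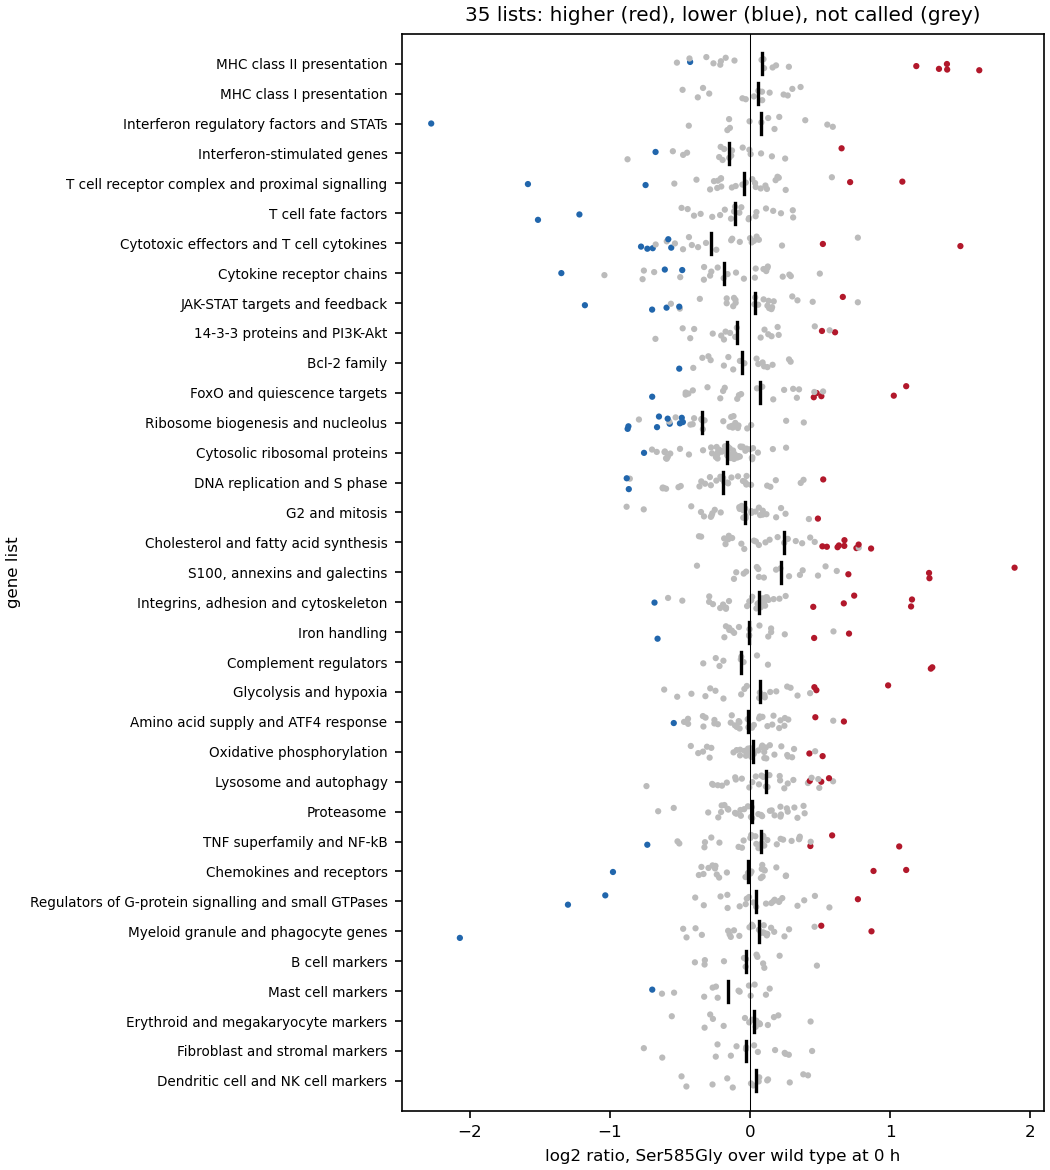
Log2 ratio of Ser585Gly over wild type at 0 h (x axis) for the measured genes of 35 lists (y axis), 1 point a gene and a black bar at the list's median. The ribosome biogenesis median lies at -0.35 and that of cholesterol and fatty acid synthesis at 0.24, whereas the class II list holds 5 red points above 1 and a median of 0.09.

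Some genes that differed at 0 h in the same direction lay beside each other in the genome. Among 14835 measured genes put in the order of RefSeq (GRCm38.p6), 48 adjacent pairs had both genes called in the same direction and 13 in opposite directions, and 84 of the 703 called genes (11.95%) were in a same-direction pair. Some pairs are related genes, such as H2-Ab1, H2-Aa and H2-Eb1, or the run of Mcpt8, Ctsg, Gzme, Gzmd and Gzmg, all lower. Others are not, such as Gzmk and Esm1, both higher by 1.50 and 1.71, or Eif2b4, a translation factor subunit, and Ppm1g, a phosphatase, lower at -1.34 and -1.17. A running median over 31 neighbouring genes was then taken for the 8586 genes with a position and a brightness above the 50th percentile, of which 290 (3.38%) were called higher and 270 (3.14%) lower. The window, the brightness limit and a limit of 0.25 were chosen after the data were seen, and no test was made.

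Stretches with medians below 0 were found on chromosomes 2 and 6. The stretch from Rbm17 to Surf1 on chromosome 2 held 69 of these genes, with a median log2 ratio of -0.36 and 55 of 69 below 0; 22 were called lower and 2 higher. The stretch from Hk2 to Suclg2 on chromosome 6 held 82, with a median of -0.38 and 68 below 0; 22 were called lower and 1 higher. Both stretches were low on each 0 h array, but the fit that gave the stretches holds these arrays, so this is no independent check. The chromosome 2 medians were -0.29 and -0.34 on arrays 1 and 2, and the chromosome 6 medians were -0.36 and -0.29. On the 12 h arrays, which also enter the fit that gave the stretches and so are no independent check, they were -0.33 and -0.24 for chromosome 2 and -0.42 and -0.27 for chromosome 6. Outside all stretches the 8427 genes had a median of -0.01. Of 7986 windows 158 (1.98%) lay 0.25 or more from 0, and all but 8 of them were in these 2 stretches; the 8 were on chromosome 3 between Kcnmb2 and Pex5l, with a median of 0.33 over 8 genes. The probes were spread over 37 and 40 of the 48 blocks of the array.

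The stretches on chromosomes 2 and 6 held 44 of the 270 genes called lower (16.3%), which follows from how they were chosen. They included members named above: Il15ra, Skida1 and Rpl7a on chromosome 2, and Mcm2 and Mthfd2, a mitochondrial folate enzyme (-0.54 ± 0.12), on chromosome 6. Notch1, a receptor of T cell development, had -1.33 and -0.52 on the arrays (-0.89), and Commd3, the last of a run of called genes in RefSeq order (Skida1, Mllt10, Dnajc1 and Commd3), had -0.82 and -0.64 (-0.75). On chromosome 6, Cct7, a subunit of a cytosolic chaperonin, had -1.14 and -0.59 (-0.86), and Snrnp27, a splicing protein, had -1.59 and -0.64 (-1.08). Vim lies within the chromosome 2 stretch and was higher. What accounts for the stretches was not tested.

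**Figure D4:**
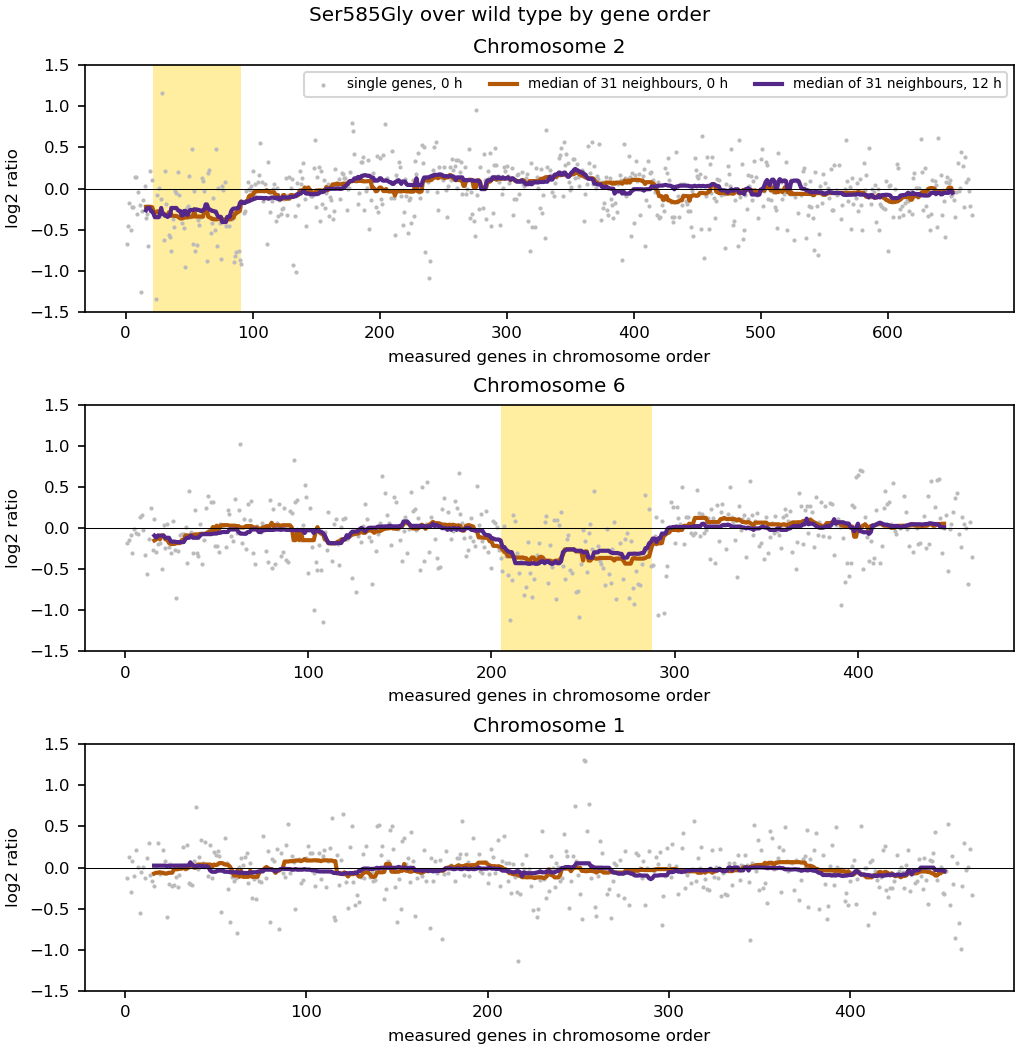
Log2 ratio of Ser585Gly over wild type for genes in chromosome order on chromosomes 2, 6 and 1 (x axis, rank along the chromosome; y axis, log2 ratio, with points outside 1.5 not drawn), with running medians of 31 genes at 0 h (orange) and 12 h (violet). The shaded stretches have medians of -0.36 (chromosome 2) and -0.38 (chromosome 6), and both lines drop together there, while chromosome 1 has none.

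Most of the larger differences of the deprived cells had the same sign after GM-CSF. A fit took the 0 h ratio from arrays 1 and 2 and its spread from all 8 arrays, and 227 probes passed there. Of these, 214 (94.27%) had the same sign on both 12 h arrays, against 35.3% of all probes. The opposite sign on both was seen for 4 (1.76%), against 17.44%. That spread includes how far the 12 h arrays agreed, so the 227 probes were not chosen independently of those arrays. Wfdc15a had -2.40 and -2.32 on the 12 h arrays, Irf8 -1.60 and -1.38, Lgals3 2.45 and 2.38, and H2-Ab1 1.20 and 1.35. The difference of the mutation effect between 12 h and 0 h was tested as an interaction, and 12 of 21778 probes (0.0551%) passed, 9 of them with 1 gene symbol. None passed with dye-swap pairs averaged in limma, where 1513 had an unadjusted p under 0.05.

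Among these 9, Sat1, Xpnpep2 and Trim29 were higher in Ser585Gly at 0 h and did not pass at 12 h. Sat1 had 1.47 and 1.36 at 0 h and 0.14 and 0.29 at 12 h. Xpnpep2 had 1.71 and 1.64 at 0 h and 0.22 and 0.72 at 12 h, and Trim29, a member of the tripartite motif family, 1.14 and 0.78 against 0.12 and -0.19. For each of the 3 genes both 0 h ratios lay above both 12 h ratios. These arrays enter the fit that chose the genes, so this is no independent check. Tln2, a talin that links integrins to actin, had -1.64 and -0.81 at 0 h and -0.22 and 0.70 at 12 h. Ighm had -2.60 and -1.83 at 0 h and -0.76 and -0.26 at 12 h on its 1 called probe. Rgs18, a regulator of G-protein signalling, went the other way, with -1.51 and -0.52 at 0 h and -3.99 and -3.98 at 12 h, on a probe at the 19.03 percentile of brightness whose Ser585Gly signal lay within the empty wells on array 1 at 0 h. Ctnnd2, a catenin, had 0.70 and 1.09 at 0 h and 2.32 and 2.45 at 12 h.

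**Figure D5:**
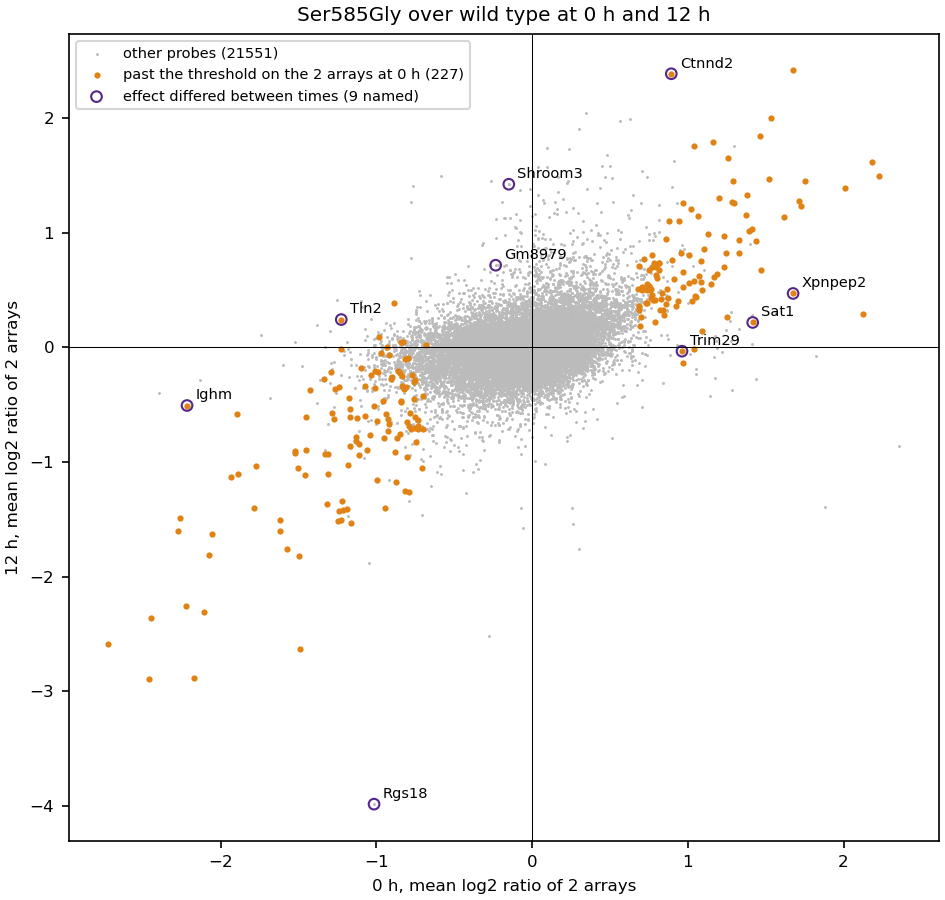
Mean log2 ratio of Ser585Gly over wild type on the 0 h arrays (x axis) and on the 12 h arrays (y axis) for every probe. Orange points are the 227 probes past the threshold with the ratio of the 0 h arrays and the spread of all 8 arrays. Of these, 214 have the same sign on both 12 h arrays. Circles mark the 9 named genes with a called difference between times, with Rgs18 at the bottom (-3.99 and -3.98 at 12 h).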

How the data were processed

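RNA of CTL-EN cells with wild-type or Ser585Gly beta-c was hybridised to 8 2-colour arrays. The deposited scanner files give intensity per spot and dye, foreground and background, per the file headers. Scanner settings were not analysed here. The deposited value table holds log2 ratios of Cy5 over Cy3, and the submitters' processing notes name limma. The scanner files carry no names, so 21778 of 21797 probes were placed by their 8 ratios (r from 0.948 to 0.996 per array), 4 being dropped for a shared spot and 15 for differing values. The deposited names follow a print with other pins, and a recovered order was used: empty wells (209) had a median brightness percentile of 46.3 before and 1.27 after, ribosomal protein genes (64) 50.9 and 99.1. All gene names rest on it. Symbols were assigned to 16642 probes (15093 genes), by gene identifier for 15966, by accession for 6, with 670 kept; 137 had several and 4999 none.

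Background was corrected by normexp (offset 50), arrays were normalised by loess (span 0.3), and limma 3.58.1 in R 4.3.3 fitted mutation, time, interaction and dye over all arrays (4 residual and 4.35 prior degrees of freedom; two-sided, Benjamini-Hochberg over all probes, threshold 0.05). Ratios of the fit carry its SE. The fit was tested on simulated data. A probe counted as within empty wells at or below their 95th percentile. Precision is limited by the number of arrays. The labels pair no replicate numbers across groups beyond dye orientation. The named genes passed the fit and the fit of averaged dye-swap pairs with the same sign on both 0 h arrays (20 in each direction), or were the 4 largest called members of a list; others are named with values to show that they did not pass, or were chosen after their values were seen (genes of the stretches). Members and lists were chosen with earlier results of these data known. Alternatives were no background correction, subtraction, print-tip loess, median centring, scaled arrays, dim probes left out, averaged pairs and no dye term. Others were the ratio of the 2 direct arrays with the spread of all 8 arrays, the deposited table, an intensity trend, and each array left out. Some items are not reported here.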

Additional observations from a re-analysis of the deposited data

Results flagged for a closer look

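For 9 named genes the effect of Ser585Gly at 12 h with GM-CSF differed from that at 0 h by limma's interaction term (Benjamini-Hochberg adjusted p from 0.0069 to 0.036), given here as the 12 h effect minus the 0 h effect on the log2 scale. The difference was -1.13 for Sat1, -1.19 for Xpnpep2, -1.02 for Trim29 and -2.40 for Rgs18. It was 1.53 for Ctnnd2, 1.63 for Shroom3, 1.43 for Ighm, 1.41 for Tln2 and 0.95 for Gm8979. Shroom3, an actin-binding protein of epithelia, had -0.26 and -0.04 at 0 h and 1.50 and 1.34 at 12 h. Its Ser585Gly signal of 214.4 on array 1 at 0 h lay within the empty wells, up to 216.2 there. Tln2 lies beside Tpm1, which was lower at both times (-1.82 and -1.17).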

How the results depend on the processing

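Counts of called probes at 0 h moved by over 1.5 times under several settings. Against 887, the count was 2040 with print-tip loess, 2558 with the deposited table, 545 with median centring and 509 with no dye term. It was 293 with averaged dye-swap pairs (39.2% higher, against 50.8%) and 110 to 637 with 1 array left out. With the ratio of the 2 direct arrays and the spread of all 8 arrays, it was 227. The interaction gave 12 probes, against 20 without background correction, 20 with subtraction, 49 with print-tip loess, 90 with the deposited table, 21 with an intensity trend, 6 with no dye term, 1 with scaled arrays, 0 with averaged pairs and 0 to 6 with 1 array left out. No named gene changed sign in 2408 refits; 620 of these lost the call, and 44 of 127 genes kept it in all. The stretch medians, tried under the 19 alternatives after the data were seen, ran from -0.37 to -0.31 on chromosome 2 and from -0.41 to -0.35 on chromosome 6. The median of the 14-3-3 and phosphoinositide 3-kinase list was -0.09, against 0.09 with print-tip loess and 0.10 with the deposited table. The cause of these shifts was not tested. No paired analysis was possible because the replicate numbers only name the dye orientation. Signal within empty wells limits dim probes: 6 called probes had 1 group within that range on both 0 h arrays and 4 had both groups.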
